A study of Mus musculus with 24 samples.

Results

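The FGF genes described here were the ligands *Fgf2* and *Fgf7*, the receptors *Fgfr1*, *Fgfr2*, *Fgfr3* and *Fgfr4*, and the inhibitors *Spry2* and *Spry4*. They were taken by symbol, as 8 of the 53392 genes in the deposited files, and all 8 passed the filter on low counts in every comparison. The 24 RNA-seq libraries came from 8 kinds of cells, each in biological triplicate (3 libraries), namely FiMuSCs (freshly isolated muscle stem cells), AMuSCs (activated muscle stem cells, 3 days after cardiotoxin), primary myoblasts and myotubes, each from WT (genotype Pax7-nGFP, C57BL/10ScSnJ background) and *mdx* (mdx.Pax7-nGFP) mice. The *mdx* mouse carries a nonsense mutation of *Dmd* and lacks dystrophin in its myofibres. All mice, the WT controls included, carried the Pax7-nGFP reporter, a transgene in which *Pax7* sequences drive nuclear GFP, so the sorted cells are those that expressed or retained that reporter. FiMuSCs came from resting hindlimb muscle and AMuSCs from hindlimb muscle injured by intramuscular 10 µM cardiotoxin (CTX). Both were sorted as positive for GFP and ITGA7 and negative for CD31, CD45, SCA1 and CD11b. Myoblasts were selected magnetically by the same surface proteins, with no selection on GFP named, and grown on collagen in medium with serum and 5 ng/mL of basic FGF, which is the FGF2 protein. Myotubes had differentiated for 2 days in medium with horse serum, for which no FGF is named. RNA of sorted cells was extracted with the PicoPure kit and RNA of cultured cells with the Nucleospin kit, so kit and state cannot be told apart between them. The age of the mice is not given in the sources used here.

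FGF ligands bind receptor tyrosine kinases together with heparan sulphate and signal mainly through RAS and the MAP kinases. In skeletal muscle FGF2 is a mitogen of MuSCs and delays the differentiation of myoblasts, and FGFR1 and FGFR4 are the receptors usually found in these cells. Sprouty proteins are induced by FGF signalling and inhibit it in turn.

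FGFR1, FGFR2 and FGFR3 exist in a IIIb and a IIIc form, which differ in the end of the third immunoglobulin domain, encoded by alternative exons, and bind different ligands. FGF7 binds the IIIb form of FGFR2, and FGF2 binds IIIc forms and the IIIb form of FGFR1. FGFR4 has a single form. The exon of *Fgfr4* that encodes the same stretch of the domain is shown because *Fgfr4*, one of the 2 abundant receptors of these cells, has only this version. It is coding and lies on GRCm38 at chr13:55160249-55160387 (plus strand, 139 bases), and it is printed in lower case with no part marked.
Fgfr4: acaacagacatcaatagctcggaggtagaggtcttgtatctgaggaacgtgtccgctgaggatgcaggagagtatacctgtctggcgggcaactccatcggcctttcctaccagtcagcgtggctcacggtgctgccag
In a global alignment it was identical to the IIIc exon of *Fgfr3* at 68.3% of the length of the longer exon and to the IIIb exon at 57.6%. For *Fgfr2* the same values were 64.1% and 62.2%.

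Totals ranged from 37280196 to 64429222 counts per library. *Pax7*, which defines MuSCs, was highest in FiMuSCs, at 1400 to 1970 CPM (read counts scaled by library size, with TMM factors) over both genotypes. Summed CPM of the 6 myotube markers was 48800 to 50100 in WT and 37700 to 43400 in *mdx* myotubes, and at most 2350 in the other libraries, the highest being WT myoblast replicate 2. *Dmd* was at 230 to 262 CPM in WT and 139 to 150 in *mdx* FiMuSCs and at 205 to 230 and 38.1 to 47.1 in myotubes, and since the mutation is a base change the level does not identify the genotype. The 8 markers of leukocytes and macrophages summed to 131 to 3860 CPM in *mdx* AMuSCs, with replicate 1 highest, against 12 to 31.1 in WT AMuSCs, and to 367 to 1120 CPM in *mdx* FiMuSCs against 65.6 to 316 in WT. None of the 8 was at 0 in those groups. In bulk libraries fewer cells of a type and less RNA per cell cannot be told apart.

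*Fgf2* (GRCm38 chr3:37348346-37410108) was highest in the freshly isolated cells. It was at 22.1, 22.6 and 23.8 CPM in WT FiMuSCs and at 18.6, 17.4 and 20.9 in *mdx* FiMuSCs. In WT AMuSCs its 3 libraries held 1.23, 1.62 and 1.05 CPM, the lowest of all groups, and in *mdx* AMuSCs 7.70, 7.65 and 6.68 CPM. The ranges of these 4 groups did not overlap. In culture *Fgf2* was at 6.90 ± 3.45 CPM (SD, n = 3) in WT and 3.63 ± 1.58 in *mdx* myoblasts, and at 3.34 ± 0.787 in WT and 5.35 ± 2.12 in *mdx* myotubes. From *mdx* AMuSCs down to WT myotubes, neighbouring groups in the order of means overlapped.

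*Fgf7* (GRCm38 chr2:126034658-126091185), known as keratinocyte growth factor, was almost restricted to cultured cells. It was at 29.97, 22 and 26.7 CPM in WT myoblasts and at 29.6, 39.7 and 57.2 in *mdx* myoblasts. Myotubes held 15.4 to 24.1 CPM in WT and 13.0 to 18.9 in *mdx*. No sorted library exceeded 1.92 CPM, so cultured and sorted cells did not overlap for *Fgf7*, whereas neighbouring groups within each of these sets did.

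*Fgfr1* (chr8:25513654-25575718) and *Fgfr4* (chr13:55152640-55168759) carried most of the receptor RNA. *Fgfr1* was at 1143, 1214 and 1180 CPM in WT FiMuSCs and at 837, 984 and 965 in *mdx* FiMuSCs. *Fgfr4* was at 983, 827 and 926 CPM in WT FiMuSCs and at 803, 704 and 626 in *mdx*. Both were lower in every library of the other states than in any FiMuSC library. Their order per length depended on which transcripts were summed. Over coding transcripts of more than 2000 bases *Fgfr4* exceeded *Fgfr1* in sorted and not in cultured cells, whereas over all transcripts, short fragments included, *Fgfr1* exceeded *Fgfr4* in WT FiMuSCs (mean TPM of 633 and 404), *mdx* FiMuSCs (503 and 325) and WT AMuSCs (99.5 and 85.2). In WT FiMuSCs the TPM of coding transcripts over 2000 bases was 215 ± 17.2 for *Fgfr4* and 157 ± 13.7 for *Fgfr1*, and in WT myoblasts it was 10.0 ± 0.804 for *Fgfr4* and 26.6 ± 1.84 for *Fgfr1*. On that scale the libraries of both genes did not overlap in either group.

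*Fgfr2* (chr7:130162451-133123350) and *Fgfr3* (chr5:33721674-33737068) were scarce. On the same TPM scale *Fgfr2* was at 3.19 ± 1.78 and *Fgfr3* at 1.03 ± 0.157 in WT FiMuSCs. *Fgfr2* was at 5.22, 20.1 and 15.3 CPM in WT FiMuSCs, where replicate 1 stood apart, and at no more than 4.35 CPM in any other library. *Fgfr3* was highest in myotubes, at 17.2, 22.5 and 19.3 CPM in WT and 29.7, 23.4 and 23.8 in *mdx*, and lowest in myoblasts, at 0.739 to 2.02 CPM over both genotypes.

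*Spry2* (chr14:105891947-105896819) and *Spry4* (chr18:38586247-38601415) had their highest group means in myoblasts, the cells grown with basic FGF. *Spry2* was at 183, 156 and 170 CPM in WT and 146, 146 and 172 in *mdx* myoblasts, and in no other library above 76.6. *Spry4* was at 73.0, 54.3 and 54.3 CPM in WT myoblasts and 38.0, 36.4 and 27.9 in *mdx* myoblasts, which did not overlap. For *Spry4* the *mdx* myoblasts overlapped FiMuSCs, which were at 23.5 to 35.2 CPM in WT and 22.5 to 30.1 in *mdx*. For *Spry2* the 6 groups below the myoblasts overlapped with their neighbours in the order of means. *Spry4* was lowest in *mdx* myotubes, at 7.33 ± 0.548 CPM, and in *mdx* AMuSCs, at 7.60 ± 0.875, whose libraries overlapped.

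**Figure D1:**
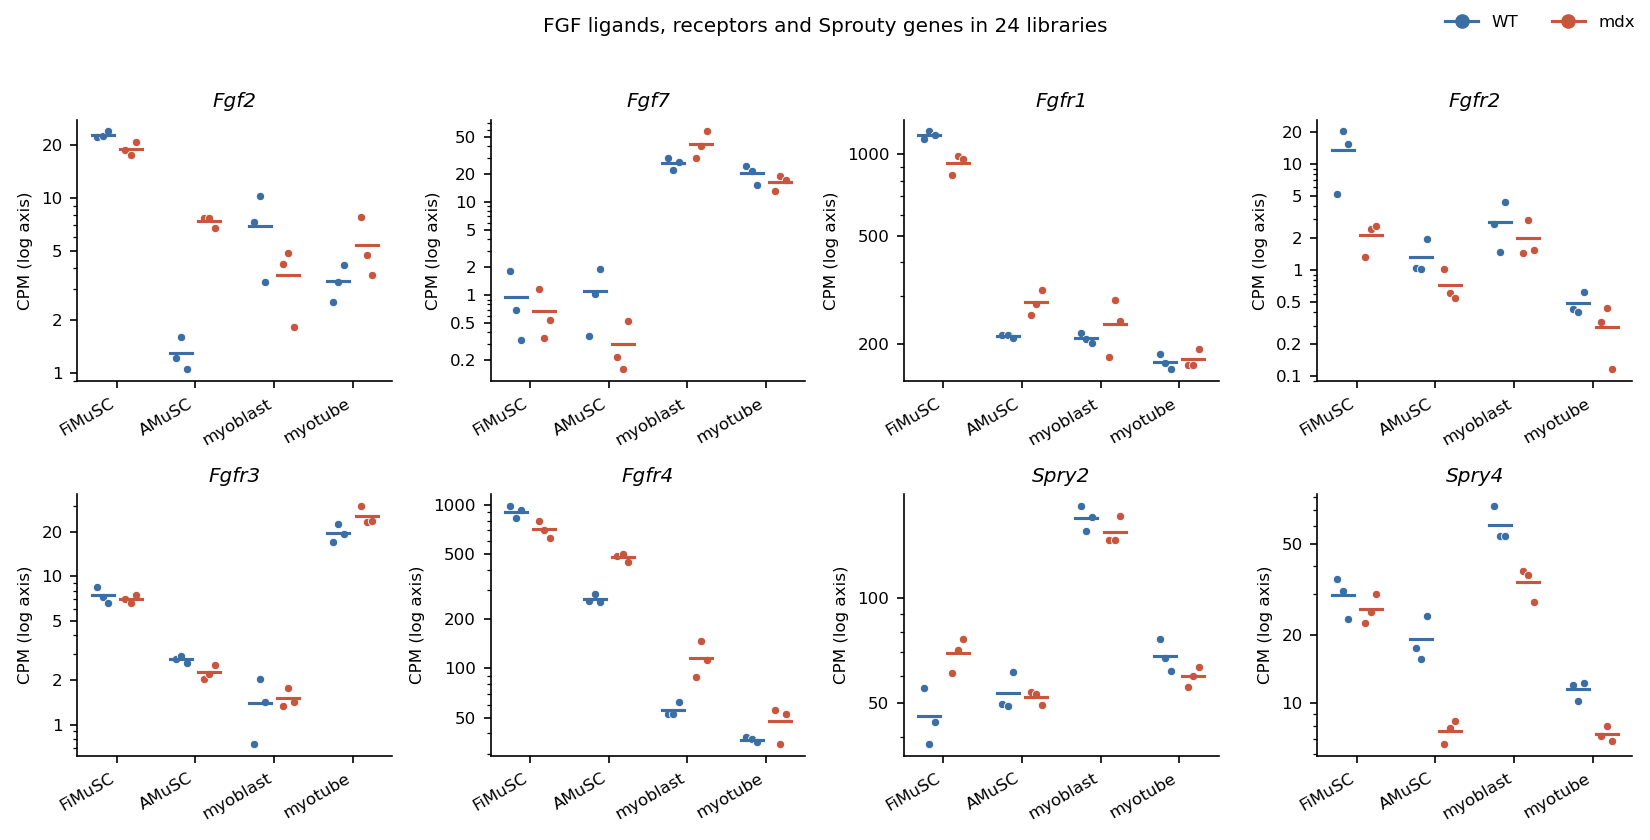
Level of each gene in CPM on a log axis (points, 3 libraries per group; bars, group means) for WT and *mdx* cells in 4 states. *Fgf7* was above 12 CPM in cultured libraries and below 2 CPM in sorted libraries, and *Fgfr1* and *Fgfr4* were highest in FiMuSCs.

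The first question was whether these genes differ between genotypes in cells that share a state. In AMuSCs *Fgf2* and *Fgfr4* were higher and *Spry4* lower in *mdx* cells. *Fgf2* was 5.55-fold higher, with a log2 fold change of 2.47 ± 0.27 (SE, adjusted p = 0.00183, edgeR quasi-likelihood test with Benjamini-Hochberg adjustment over all genes). *Fgfr4* was at 489, 498 and 445 CPM in *mdx* AMuSCs and 258, 284 and 256 in WT AMuSCs. Its libraries did not overlap, and the log2 fold change was 0.82 ± 0.12 (adjusted p = 0.00461, edgeR). *Spry4* was at 6.64, 7.81 and 8.35 CPM in *mdx* AMuSCs and 17.6, 15.7 and 24.1 in WT AMuSCs. These did not overlap either, with a log2 fold change of −1.36 ± 0.21 (adjusted p = 0.00502, edgeR). The 3 genes were called in every setting tried, with *Fgf2* at 3.21 when the average transcript length of each library was an offset, and leaving out *mdx* AMuSC replicate 1, the library with the most leukocyte RNA, gave log2 fold changes of 2.43, 0.79 and −1.28.

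Of the 8 FGF genes, 2 were higher and 1 lower in *mdx* AMuSCs, against 14.8% higher and 8.95% lower (23.7% called) among all 19321 genes tested. The groups did not overlap for 6 of the 8, and for 44.2% of all genes. For *Fgfr1* the log2 fold change was 0.39 ± 0.13 (adjusted p = 0.0626, edgeR, over its alternatives 0.0183 to 0.283). It was called without *mdx* AMuSC replicate 1 (adjusted p = 0.0395), without replicate 2 (0.0409) and in an edgeR fit of all 24 libraries (0.0183). *Fgf7*, *Fgfr2*, *Fgfr3* and *Spry2* had adjusted p of 0.11, 0.197, 0.467 and 0.782. The 9 markers of fibro-adipogenic progenitors also moved with genotype, summing to 1640 to 2450 CPM in *mdx* and 538 to 641 in WT AMuSCs, nearly all of it *Col3a1*, with *Pdgfra* at 1.99 to 4.29 and 0.895 to 1.62 CPM. The 6 markers of pericytes summed to 855 to 1110 and 306 to 347 CPM, nearly all of it *Notch3*, which MuSCs also express. The 4 proliferation markers summed to 820 to 1110 CPM in *mdx* and 1420 to 1510 in WT AMuSCs. The 9 MuSC markers summed to 2630 to 3110 CPM in *mdx* and 2060 to 2110 in WT AMuSCs. Among them *Pax7* was higher in *mdx*, at 751 to 855 and 331 to 371 CPM. *Sdc4* was lower, at 124 to 207 and 241 to 260, and so was *Chrdl2*, at 2.02 to 2.58 and 3.83 to 5.22. The 4 markers of commitment summed to 211 to 585 CPM in *mdx* and 541 to 681 in WT AMuSCs, which overlapped. Of these, *Myod1* was at 128 to 274 and 371 to 495, and *Myog* at 71 to 260 and 144 to 200. Their part in these differences was not tested.

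*Fgf2* shares 640 exonic bases with *Nudt6*, a gene on the opposite strand, and the strand setting of the quantification is not given in the sources used here. *Nudt6* was at 4.49 ± 0.499 CPM in *mdx* and 4.21 ± 0.135 in WT AMuSCs, with a log2 fold change of 0.07 ± 0.22. In WT AMuSCs against FiMuSCs, where *Fgf2* fell, *Nudt6* was also lower (−0.72 ± 0.19, adjusted p = 0.00925, edgeR), without overlap. In *mdx* that value was −0.17 ± 0.24 (0.652). Between genotypes in FiMuSCs it was −0.54 ± 0.18 (0.116), again without overlap. The part of *Nudt6* reads in the *Fgf2* values was not tested.

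In FiMuSCs *Fgfr2* alone passed edgeR's test with the main settings, at 1.33, 2.41 and 2.61 CPM in *mdx* against the WT values given above. The groups did not overlap, and the log2 fold change was −2.67 ± 0.53 (adjusted p = 0.0301, edgeR). The call was lost when WT replicate 2 or 3 or any *mdx* replicate was left out (adjusted p of 0.0613 to 0.102) and with no filter on low counts (0.0628), while over all alternatives adjusted p ran from 2.68e-07 to 0.102. Of the *Fgfr2* reads, 55, 280 and 172 in WT and 0, 57 and 50 in *mdx* FiMuSCs were assigned to transcripts that share exons with the neighbouring gene *Ctbp2*. *Fgf2*, *Fgfr1*, *Fgfr4* and *Spry2* also had no overlap between genotypes, which held for 5 of the 8 FGF genes and for 32.0% of all genes. *Spry2*, at 61.1, 71.2 and 76.6 CPM in *mdx* and 55.5, 38.2 and 44.4 in WT FiMuSCs, differed by 0.60 ± 0.15 on the log2 scale (adjusted p = 0.054, edgeR). Over its alternatives adjusted p ran from 0.00608 to 0.184, and it was called by DESeq2 (0.00958) and in an edgeR fit of all 24 libraries (0.00608). For *Fgfr1* the log2 fold change was −0.34 ± 0.09 (adjusted p = 0.0677, edgeR). Over its alternatives adjusted p ran from 0.0328, in DESeq2, to 0.188. Of the 8 genes 0 were higher and 1 lower, against 5.82% and 3.85% of 19406 genes, or 9.67% called in all.

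In myoblasts and myotubes 0 of the 8 FGF genes passed edgeR's test between genotypes, where 0.36% and 0.591% of all genes did. Before adjustment, p in edgeR was under 0.05 for 3 of them in myoblasts and 2 in myotubes. Over all genes this held for 2488 of 17226 and 2180 of 16084. The calls of DESeq2 among the 8 numbered 2 and 1. Over all genes DESeq2 called 548 higher and 341 lower of 30296 in myoblasts, and 384 and 302 of 29514 in myotubes. The edgeR calls over all genes in myotubes split into 0.373% higher and 0.218% lower, and in myoblasts into 0.244% and 0.116%. In myoblasts *Fgfr4* was at 88.2, 147 and 112 CPM in *mdx* and 52.4, 52.9 and 62.0 in WT. These did not overlap, and the log2 fold change was 1.07 ± 0.19 (adjusted p = 0.105, edgeR; over its alternatives 1.55e-06 to 0.395). For *Spry4* in myoblasts the value was −0.82 ± 0.17 (adjusted p = 0.131, edgeR; 0.000207 to 0.38 over its alternatives), and in myotubes it was at 7.19, 7.94 and 6.87 CPM in *mdx* and 12.1, 10.2 and 12.3 in WT (log2 fold change −0.66 ± 0.14, adjusted p = 0.14, edgeR; 0.0102 to 0.541 over its alternatives). In mean *Spry4* was thus lower in *mdx* in all 4 states, but in FiMuSCs by little. There the log2 fold change was −0.20 ± 0.17 (adjusted p = 0.511, edgeR). The FiMuSC groups overlapped, at 22.5 to 30.1 CPM in *mdx* and 23.5 to 35.2 in WT. *Spry4* was past the threshold in AMuSCs, and in myoblasts in an edgeR fit of all 24 libraries (adjusted p = 0.0217) and in DESeq2. Whether the genotype difference of *Spry4* varies between states was not tested over all 4. Non-overlap held for 2 of 8 genes in myoblasts and 2 of 8 in myotubes, against 21.0% and 20.9% of all genes.

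**Figure D2:**
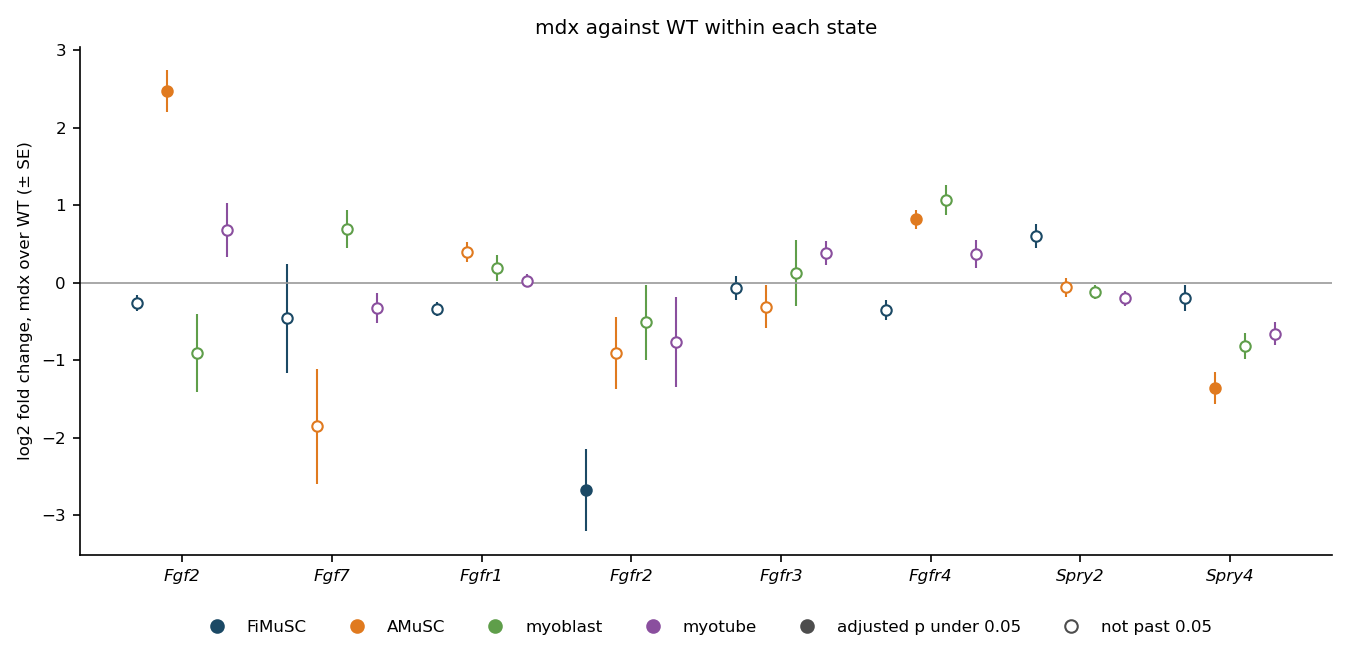
Log2 fold change of *mdx* over WT (points, edgeR estimate; bars, SE) for each gene in 4 states; filled points passed an adjusted p of 0.05. *Fgf2*, *Fgfr4* and *Spry4* passed in AMuSCs and *Fgfr2* in FiMuSCs, with no filled point in myoblasts or myotubes.

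The second comparison was of AMuSCs with FiMuSCs, 3 days after CTX, within each genotype. In WT cells *Fgf2* and all 4 receptors fell. *Fgf2* fell 16.6-fold (log2 fold change −4.05 ± 0.19, adjusted p = 9.73e-07, edgeR), *Fgfr1* fell 5.20-fold, from 1143 to 1214 CPM to 215, 215 and 210 CPM (log2 fold change −2.38 ± 0.08, adjusted p = 3.76e-07, edgeR), and *Fgfr4* 3.22-fold (log2 fold change −1.69 ± 0.10). *Fgfr2* and *Fgfr3* had log2 fold changes of −3.25 ± 0.56 and −1.34 ± 0.19. *Spry4* was also called (log2 fold change −0.55 ± 0.20, adjusted p = 0.0382, edgeR), but its groups overlapped at 24.1 CPM in AMuSCs and 23.5 in FiMuSCs. That call was lost without WT FiMuSC replicate 1 or 2, without WT AMuSC replicate 1 or 2, and under 3 other settings. With the transcript length offset the log2 fold changes were −6.002 for *Fgf2*, −4.43 for *Fgfr2* and −2.15 for *Fgfr3*, all called. Of the 8 FGF genes 0 rose and 6 fell, against 31.6% and 33.0% of 19359 genes (64.6% called), and the groups did not overlap for 5 of 8, against 72.5% of all genes. Markers of other cells also fell in WT. The 4 Schwann cell markers summed to 93.3 to 170 CPM in FiMuSCs and 5.41 to 6 in AMuSCs. Sums were 141 to 205 and 14.5 to 44.5 for 7 endothelial markers, and 65.6 to 316 and 12 to 31.1 for leukocytes. The 9 MuSC markers summed to 5330 to 6000 CPM in FiMuSCs and 2060 to 2110 in AMuSCs. Among them *Pax7* fell from 1400 to 1960 CPM to 331 to 371, while *Itga7* rose from 416 to 602 CPM to 954 to 1030. The part of cell content in these changes was not tested.

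In *mdx* cells the same 6 genes were called lower. *Fgf2* had a log2 fold change of −1.37 ± 0.17, *Fgfr1* of −1.71 ± 0.17, *Fgfr3* of −1.65 ± 0.25 and *Spry4* of −1.77 ± 0.19. The value of *Fgf2* was −3.08 with the transcript length offset. For *Fgfr4* it was −0.58 ± 0.16 (adjusted p = 0.0345, edgeR), a call lost without *mdx* FiMuSC replicate 1, 2 or 3 or *mdx* AMuSC replicate 1 or 3. *Fgfr2*, at 2.12 ± 0.688 CPM in FiMuSCs and 0.724 ± 0.261 in AMuSCs, differed by −1.56 ± 0.46 on the log2 scale (adjusted p = 0.0407, edgeR), a call lost without *mdx* FiMuSC replicate 2 or 3 or *mdx* AMuSC replicate 2 or 3, with no filter on low counts (adjusted p = 0.0652) and with the length offset (−0.93). Of the 8 genes 0 rose and 6 fell, against 15.5% and 11.7% of 19650 genes (27.3% called), and the groups did not overlap for 7 of 8, against 48.9% of all genes. In *mdx* the Schwann cell markers summed to 51.8 to 198 CPM in FiMuSCs and 12 to 21.4 in AMuSCs. The endothelial markers summed to 194 to 594 and 11.1 to 39.2 CPM, while the leukocyte sums, given above, overlapped. Their part in the *mdx* changes was not tested. Whole-list medians of log2 fold change were −1.52 in WT and −1.47 in *mdx*, against −0.08 and −0.02 over all genes.

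The size of the response differed between genotypes for 5 of the 8 genes, 3 with a positive and 2 with a negative difference, against 8.14% and 6.98% of 21086 genes (15.1% called). *Fgf2* (difference of log2 fold changes, *mdx* minus WT, 2.65 ± 0.23), *Fgfr4* (1.08 ± 0.18) and *Fgfr1* (0.64 ± 0.17) fell less in *mdx*, with adjusted p of 0.000453, 0.00328 and 0.0244 in edgeR. *Spry4* fell more in *mdx* (−1.25 ± 0.28, adjusted p = 0.0137, edgeR). *Spry2*, with log2 fold changes of 0.30 ± 0.15 in WT and −0.42 ± 0.13 in *mdx*, neither past the threshold, differed by −0.75 ± 0.21 (adjusted p = 0.0325, edgeR). The *Fgfr1* call was lost without WT FiMuSC replicate 3 or WT AMuSC replicate 1, and the *Spry2* call without any of 7 of the 12 libraries, namely WT FiMuSC replicates 2 and 3, WT AMuSC replicates 1 and 3, *mdx* FiMuSC replicates 2 and 3 and *mdx* AMuSC replicate 3. The number of calls was 3 without WT FiMuSC replicate 3 and 3 without WT AMuSC replicate 1. *Fgfr3*, with a difference of −0.33 ± 0.28, and *Fgfr2* and *Fgf7*, with 1.66 ± 0.69 and −1.51 ± 1.09, did not pass.

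The third comparison was of myotubes with myoblasts. *Fgfr3* rose, and both Sprouty genes, *Fgfr2* and *Fgfr4* fell, in WT and in *mdx* cells. The log2 fold change of *Fgfr3* was 3.82 ± 0.35 in WT and 4.12 ± 0.20 in *mdx* (adjusted p of 5.51e-05 and 5.01e-05, edgeR), with no overlap in either genotype. *Spry4* fell 5.21-fold in WT and 4.56-fold in *mdx*, and *Spry2* 2.46-fold and 2.55-fold, all 4 without overlap (adjusted p of at most 0.000156, edgeR). *Fgfr2* had log2 fold changes of −2.53 ± 0.46 and −2.74 ± 0.63, and *Fgfr4* of −0.59 ± 0.08 and −1.26 ± 0.25. With the average transcript length of each library as an offset, the *Fgfr4* value in WT was −0.04 and the *Fgfr2* value in *mdx* −2.06, and neither was called, while *Fgfr3* in WT was at 4.95.

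*Fgfr1* passed in WT, at −0.28 ± 0.06 (adjusted p = 0.00506, edgeR), and *Fgf7* in *mdx*, at −1.35 ± 0.27 (adjusted p = 0.00609, edgeR). In a fit of all 24 libraries *Fgfr1* passed in *mdx* (adjusted p = 0.00744) and not in WT (0.0645), and without *mdx* myoblast replicate 1 it passed in *mdx* (0.0105). *Fgf7* passed in WT with the length offset (0.0447). Neither difference between genotypes passed, and 0 of the 8 genes did so in that test, where 0.0592% of 18585 genes were called by edgeR. Before adjustment p in edgeR was under 0.05 for 3 of the 8 and for 2281 of the 18585 genes. The calls of DESeq2 numbered 0 of the 8, with 178 positive and 109 negative among 32681 genes. The edgeR calls over all genes split into 0.0269% with a positive and 0.0323% with a negative difference. In each genotype 1 FGF gene rose and 5 fell, against 34.9% and 34.5% of 16907 genes in WT (69.5% called) and 25.8% and 26.5% of 17206 genes in *mdx* (52.2% called). Myotubes and myoblasts did not overlap for 6 of the 8 genes in each genotype, against 75.8% of all genes in WT and 63.7% in *mdx*. Medium and state changed together, since myotubes were not kept with basic FGF, so these cannot be told apart.

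**Figure D3:**
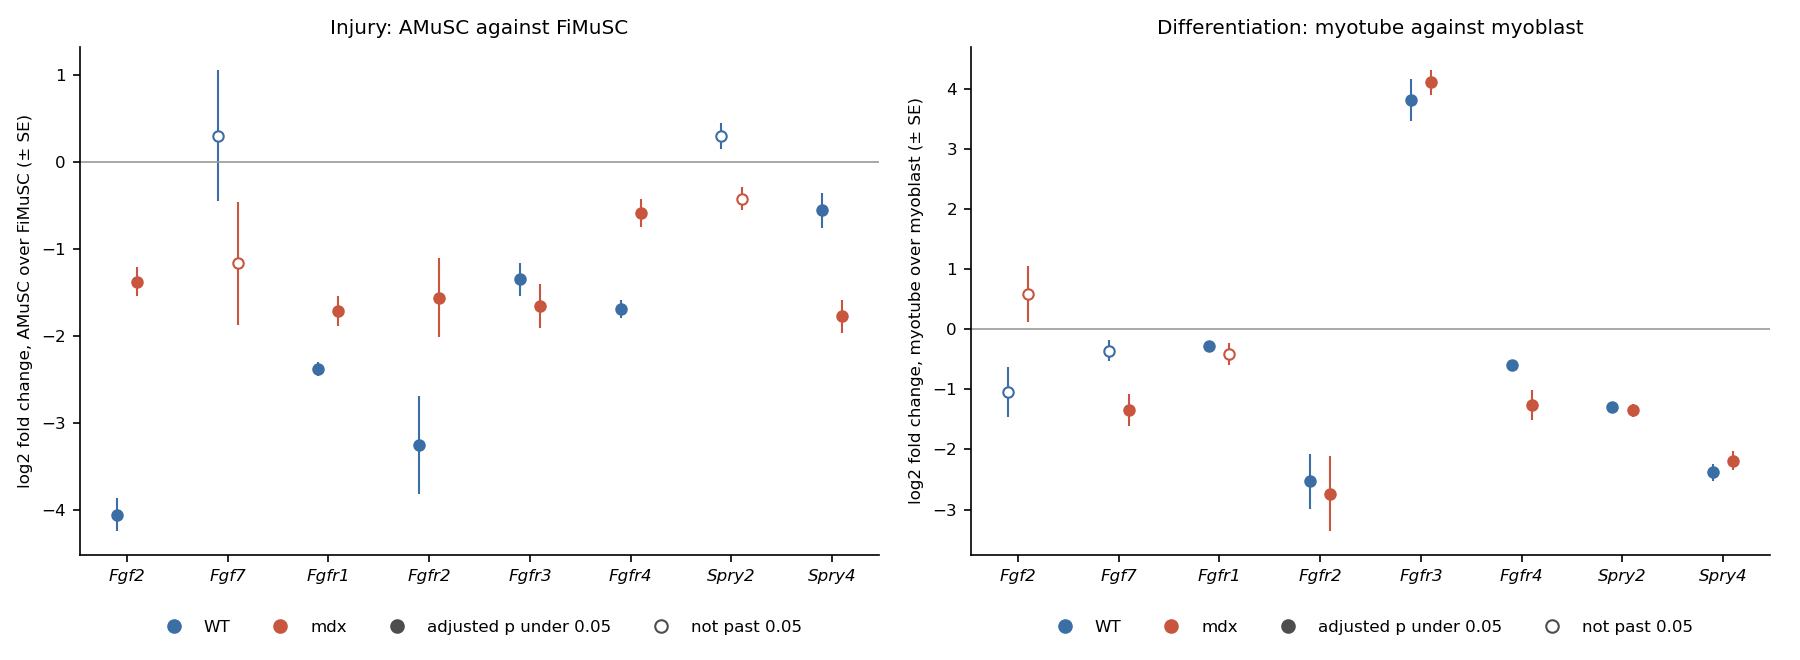
Log2 fold change (points, edgeR estimate; bars, SE) of AMuSC over FiMuSC on the left and of myotube over myoblast on the right, in WT and *mdx*; filled points passed an adjusted p of 0.05. After injury *Fgf2* lies at −4.05 in WT and −1.37 in *mdx*, and after differentiation *Fgfr3* lies at 3.82 and 4.12.

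The balance of both main receptors shifted between states. The ratio of *Fgfr4* counts to *Fgfr1* counts does not depend on scaling between libraries. It is not adjusted for transcript length, so a value of 1 does not mean equal RNA. The ratio was 1.20, 1.32 and 1.22 in WT AMuSCs and 1.91, 1.76 and 1.41 in *mdx* AMuSCs. It was 0.238, 0.253 and 0.309 in WT myoblasts and 0.495, 0.504 and 0.462 in *mdx* myoblasts. In both states the genotypes did not overlap, with exact permutation p = 0.1 two-sided, the smallest that 3 against 3 libraries can give. FiMuSCs did overlap, with means of 0.775 ± 0.09 in WT and 0.775 ± 0.164 in *mdx*.

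Transcripts with the *Fgfr1* IIIc exon held more TPM than those with the IIIb exon in every library, and those with the IIIb exon made up more of the total in myotubes than in the other states. The IIIb share of the TPM of coding transcripts with either exon was 20.6%, 20.5% and 15.1% in WT myoblasts and 48.1%, 47.7% and 45.1% in WT myotubes, with no overlap. In *mdx* it was 22.1%, 21.8% and 18.7% in myoblasts and 36%, 46% and 35.5% in myotubes, again with no overlap. In AMuSCs it was 18.4% to 22.7% in WT and 26.5% to 28.4% in *mdx*, which did not overlap either, and in FiMuSCs it was 23.8% to 30.4% and 28.6% to 30.7%. The TPM of IIIc transcripts was 21.5 ± 1.04 in WT myoblasts and 7.88 ± 0.771 in WT myotubes, and that of IIIb transcripts 5.01 ± 1.10 and 7.02 ± 1.10. These shares are estimates that rest on every base by which the annotated transcripts differ, not counts of reads on the exons. The depth behind them was 823 to 7696 reads in IIIb and 2037 to 30808 in IIIc transcripts per library. For *Fgfr2* and *Fgfr3* the reads in these transcripts were too few for a share.

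**Figure D4:**
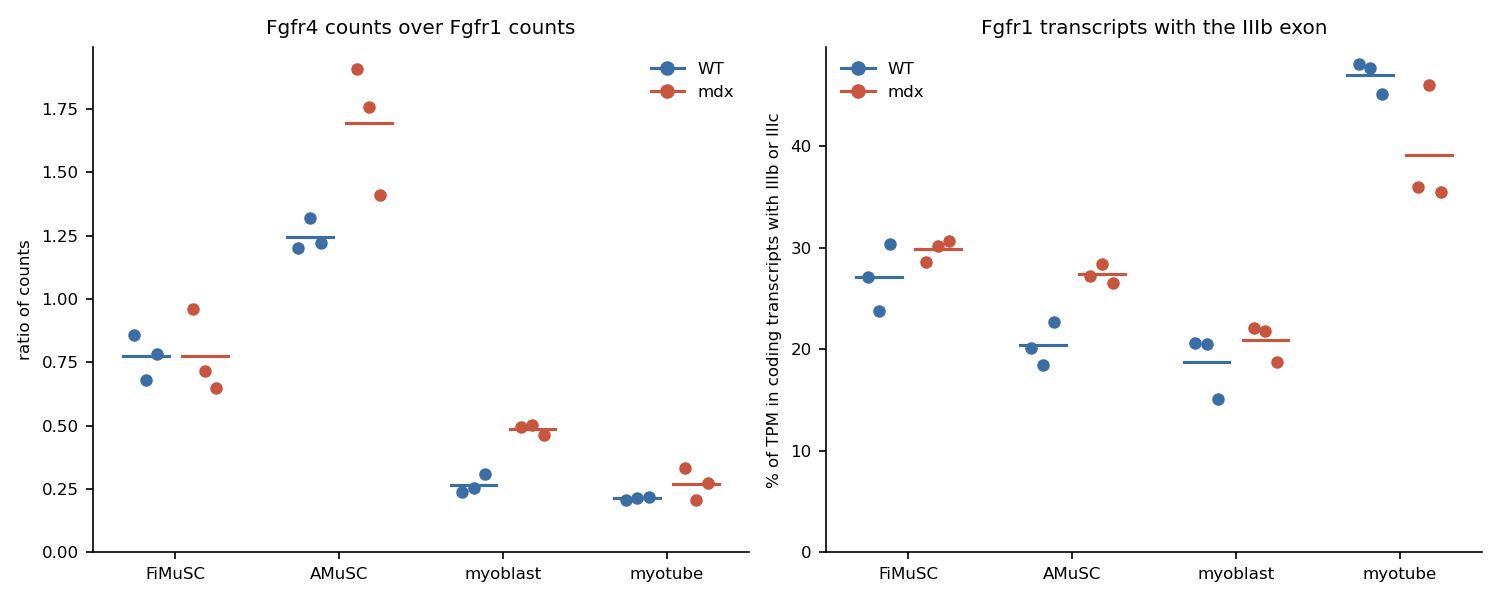
Left, the ratio of *Fgfr4* to *Fgfr1* counts; right, the percent of TPM in *Fgfr1* coding transcripts that hold the IIIb exon (points, 3 libraries per group; bars, means). The ratio, which is not adjusted for transcript length, is above 1 in all AMuSC libraries and below 1 in all others, and the share is 35.5% to 48.1% in myotubes.

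Around the 8 genes, 80 other genes of the FGF pathway were listed by role. On differentiation, when 34.9% of all genes rose and 34.5% fell in WT and 25.8% and 26.5% in *mdx*, most of the tested feedback inhibitors and targets of FGF and MAP kinase signalling fell. Of 8 other feedback inhibitors tested, 7 fell and 1 rose in WT, and 7 fell and 0 rose in *mdx*. *Dusp4* and *Dusp5*, phosphatases of ERK, had log2 fold changes of −3.10 ± 0.24 and −3.24 ± 0.26 in WT and −4.01 ± 0.12 and −2.97 ± 0.23 in *mdx*. *Spry1*, a Sprouty gene of quiescent MuSCs, went the other way in WT, from 21.3 ± 5.997 CPM in myoblasts to 104.6 ± 7.24 in myotubes (log2 fold change 2.31 ± 0.23, adjusted p = 0.000154, edgeR), and had 0.77 ± 0.76 in *mdx* (adjusted p = 0.433). Of 8 transcriptional targets 6 fell and 1 rose in WT and 5 fell and 0 rose in *mdx*, among those that fell *Etv4*, an ETS factor, at −4.56 ± 0.11 and −4.19 ± 0.33, and *Ccnd1*, cyclin D1, at −4.57 ± 0.14 and −4.66 ± 0.52.

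Of 20 other ligands listed, 7 were tested on differentiation, of which 7 rose in WT and 4 in *mdx*, against the 34.9% and 25.8% of all genes that rose. A ligand scarce in myoblasts can pass the filter on low counts through its myotube level alone. These counts are therefore no test of whether ligands rise more often than other genes. *Fgf21*, a secreted hormone, went from 1.69 ± 1.56 to 176.6 ± 25.9 CPM in WT and from 1.11 ± 1.41 to 143.7 ± 52.9 in *mdx* (log2 fold changes 6.72 ± 0.69 and 7.004 ± 0.98, and 7.82 without WT myoblast replicate 2 and 8.88 without *mdx* myoblast replicate 2). *Fgf9* had 3.82 ± 0.62 (4.73 without WT myoblast replicate 3) and 4.70 ± 0.70, and *Fgf5* had 4.32 ± 0.34 in WT and 2.89 ± 1.08 in *mdx*, the last with adjusted p = 0.0635 in edgeR. Over all 80 genes 21 rose and 34 fell of 64 tested in WT and 15 rose and 31 fell of 64 in *mdx*, with medians of −0.51 and −0.46.

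After injury 24 of the listed genes rose and 25 fell of 64 tested in WT, against 31.6% and 33.0% of all genes, and 15 rose and 12 fell of 65 in *mdx*, against 15.5% and 11.7%. In *mdx* 15 were called in place of 27 without *mdx* FiMuSC replicate 2 and 17 without *mdx* AMuSC replicate 3. *Spry1* fell from 917 ± 154 CPM in WT FiMuSCs to 67.1 ± 5.6 in WT AMuSCs (log2 fold change −3.68 ± 0.14) and from 569.5 ± 101.6 to 133.5 ± 5.98 in *mdx* (−2.10 ± 0.18). Like that of *Fgf2* and *Fgfr4* and unlike that of *Spry4*, its difference between genotypes was positive, at 1.56 ± 0.22 (adjusted p = 0.00152, edgeR), a call lost in a fit of all 24 libraries (0.0995). *Etv4* rose in both genotypes (3.65 ± 0.40 and 2.40 ± 0.31) and *Egr1*, an immediate early gene, fell in both (−3.45 ± 0.55, or −2.75 without WT FiMuSC replicate 1, and −2.78 ± 0.24).

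Between genotypes, 18 of the listed genes were higher and 11 lower of 66 tested in *mdx* AMuSCs, against 14.8% and 8.95% of all genes. Left out in turn, WT AMuSC replicates 1, 2 and 3 gave 11, 14 and 10 calls in place of 29. The glypican *Gpc3*, a heparan sulphate proteoglycan, was at 40.6 ± 8.76 CPM in *mdx* and 3.33 ± 1.08 in WT AMuSCs (log2 fold change 3.58 ± 0.30, adjusted p = 0.000927, edgeR) and also higher in *mdx* FiMuSCs (1.75 ± 0.14), a call lost in a fit of all 24 libraries (adjusted p = 0.321). By role, 5 of 9 enzymes of heparan sulphate were higher and 0 lower in *mdx* AMuSCs, beside the same 14.8% and 8.95%. Of 8 transcriptional targets 2 were higher and 4 lower, and of 15 co-receptors and binding proteins 4 and 3. Of 8 other feedback inhibitors 2 were higher and 2 lower, of 8 ligands 2 and 1, and of 18 adaptor and Ras-MAPK genes 3 and 1. *Dusp4* was lower in *mdx* AMuSCs (−1.35 ± 0.20, adjusted p = 0.00444, edgeR), as *Spry4* was, and *Spry1* higher (0.97 ± 0.11, adjusted p = 0.00206, edgeR). In FiMuSCs 8 were higher and 1 lower of 63, against 5.82% and 3.85% of all genes, among them *Dusp6*, another phosphatase of ERK, at 68.9 ± 5.29 CPM in *mdx* and 21.6 ± 5.31 in WT (log2 fold change 1.68 ± 0.18, adjusted p = 0.0044, edgeR), and *Fgf13*, an intracellular member of the family, at −2.61 ± 0.19, which was −1.86 and not called with the length offset (adjusted p = 0.239). The 9 calls in FiMuSCs became 17 without *mdx* FiMuSC replicate 1 and 5 without replicate 2. In myoblasts and myotubes 0 of 64 passed in edgeR, and DESeq2 called 6 and 5.

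**Figure D5:**
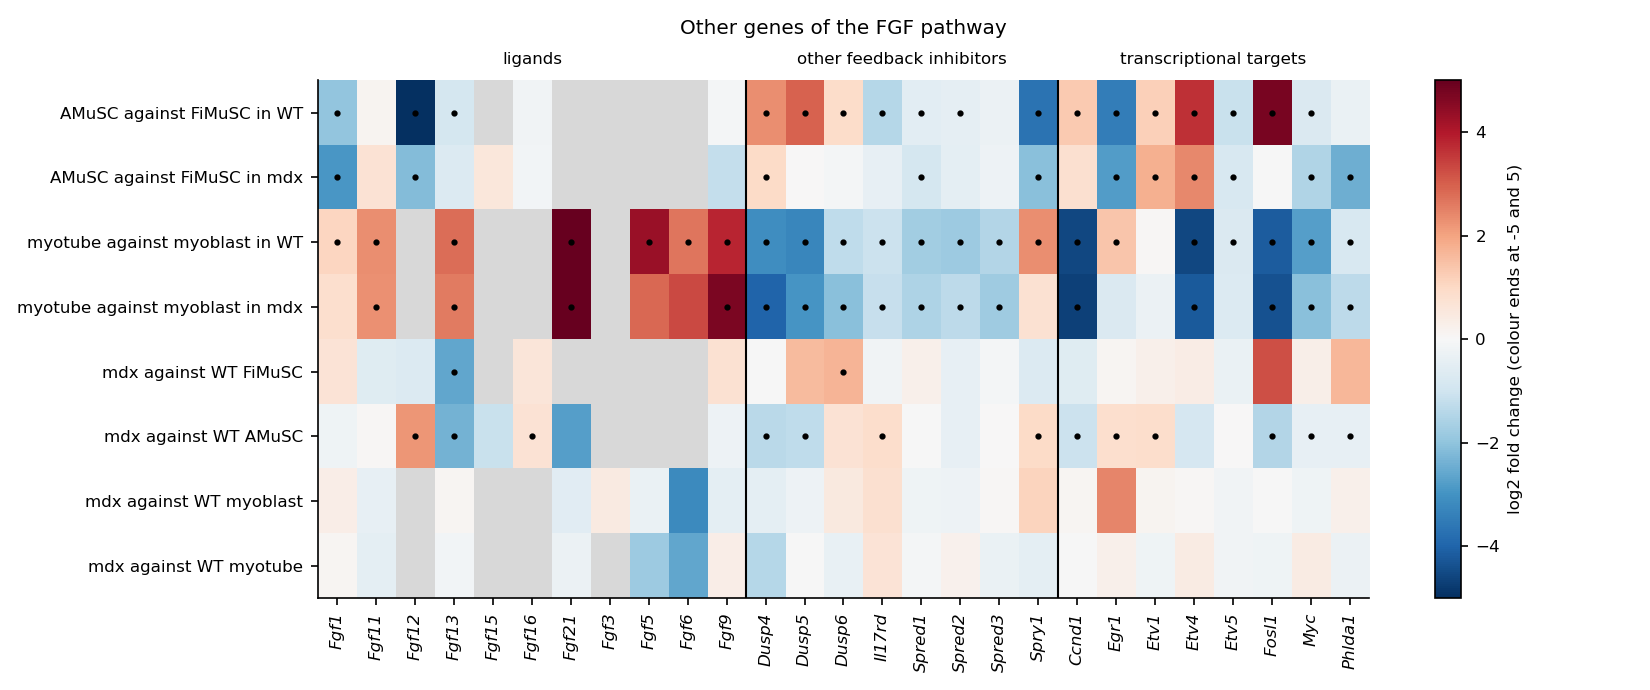
Log2 fold change (colour, ending at −5 and 5) of the other ligands, feedback inhibitors and transcriptional targets tested, in 8 comparisons; dots mark an adjusted p under 0.05 and grey marks genes not tested. On differentiation the inhibitors other than *Spry1* are negative in both genotypes and the tested ligands are positive. A ligand scarce in myoblasts can enter the test through its myotube level alone.

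Across the 24 libraries, which share state as their main axis, the profiles of log2 CPM most like each gene among 22319 genes gave Pearson r of 0.889 to 0.984. The closest were *Ttc28* and *Tagln* to *Fgf2*, *Fam167a* and *Masp1* to *Fgf7*, *Tns2* and *Gas1* to *Fgfr1*, and *Elovl4* and *Hgsnat* to *Fgfr2*. For the others they were *Mtmr1* and *Klhl7* to *Fgfr3*, *Notch3* and *Map2* to *Fgfr4*, *Gprc5a* and *Myo1d* to *Spry2*, and *Mark1* and *Grik3* to *Spry4*. Among the 8 genes themselves, r was 0.835 between *Fgfr1* and *Fgfr4*, 0.641 between *Spry2* and *Spry4* and −0.856 between *Fgf7* and *Fgfr4*.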

How the data were processed

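RNA-seq libraries were made from 20 ng of total RNA with a directional polyA kit. The authors quantified reads against GRCm38 transcripts with Salmon 0.13.1, per the submitters' processing notes, and deposited an expected count and a TPM for each transcript and library. Here the expected counts were summed per gene, rounded, filtered with filterByExpr, scaled with TMM and tested with edgeR 4.0.16 (R 4.3.3), by robust quasi-likelihood tests with Benjamini-Hochberg adjustment over all genes tested and a threshold of 0.05. Each fit used only the groups compared. CPM came from TMM over all 24 libraries, log2 CPM used a prior count of 2, and SE was the log2 fold change divided by the root of F. Library totals ranged from 37280196 to 64429222, and errors and p-values measure the spread between the 3 libraries of a group. Alternatives were DESeq2 1.42.0, its size factors, no filter, a transcript length offset, 1 fit of all libraries, a replicate block and leaving out each library. Exons were aligned with Biopython 1.88. Some exon sequences are not reported here. The tests were checked on simulated counts. The members, gene lists and tests were chosen with earlier results of these data known. Named genes were the 8 FGF genes, in each comparison up to 4 called pathway genes per direction with the largest change (mean log2 CPM no lower than 0), and the 2 genes most alike in profile, with predicted or unnamed loci and pseudogenes passed over. *Spry1* on differentiation and between genotypes, and values given for a named gene in the other genotype, were chosen after they were seen. Same-numbered replicates of groups compared had correlations of their deviations from −0.158 to 0.357 and were not taken as pairs. The TPM sums over coding transcripts of more than 2000 bases were used to compare genes.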

Additional observations from a re-analysis of the deposited data

Results flagged for a closer look

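The response to CTX differed between genotypes for 5 of the 8 FGF genes by the interaction term in edgeR, as the difference of log2 fold changes, *mdx* minus WT. Over all 21086 genes tested 15.1% were called, 8.14% with a positive and 6.98% with a negative difference. The difference was 2.65 for *Fgf2*, 1.08 for *Fgfr4* and 0.64 for *Fgfr1*, which fell less in *mdx*. It was −1.25 for *Spry4*, which fell more in *mdx*, and −0.75 for *Spry2*. The call was lost in 3 of 18 alternatives for *Fgfr1* and in 8 of 18 for *Spry2*. Leukocyte markers summed to 131 to 3860 CPM in *mdx* and 12 to 31.1 in WT AMuSCs, and their part in these differences was not tested.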

How the results depend on the processing

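*Fgf2*, *Fgfr4* and *Spry4* between genotypes in AMuSCs, and their differences in the injury response, were called under every alternative run. Of the 8 genes, DESeq2 called 3 in FiMuSCs, 2 in myoblasts and 1 in myotubes. Over all genes it called 1907 higher and 1228 lower of 33270 in FiMuSCs. A fit of all 24 libraries called 2 of the 8 in FiMuSCs, 5 in AMuSCs and 2 in myoblasts. Of 22319 genes it called 997 higher and 553 lower in FiMuSCs, 4121 and 2259 in AMuSCs, and 348 and 84 in myoblasts. The transcript length offset left 3 differences in the injury response, and over all 21086 genes 1014 positive and 766 negative ones. With a library left out, calls ranged from 0 to 2 in FiMuSCs, 0 to 1 in myoblasts and 3 to 6 for the injury difference. The replicate block ended the calls of *Spry4* after injury in WT and of *Fgfr2* and *Fgfr4* in *mdx*, gave 17 pathway calls in place of 27 there, and changed no other call of the 8 genes. The cause of these changes was not tested.

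Signs turned only for values that were not called. With the length offset these were, in FiMuSCs, *Fgf2* (0.185) and *Fgfr3* (0.032), in AMuSCs *Fgfr2* (0.510) and *Fgfr3* (0.126), in myoblasts *Fgfr1* (−0.003) and *Fgfr2* (0.220), in myotubes *Fgf2* (−0.601) and *Fgfr2* (0.112), and for the differentiation difference *Fgfr1* (0.208), *Fgfr3* (−0.575) and *Spry2* (0.003). With a library left out, log2 fold changes ran from −1.081 to 0.406 for *Fgf7* and −0.145 to 0.029 for *Fgfr3* in FiMuSCs, −0.119 to 0.043 for *Spry2* in AMuSCs, −0.182 to 0.484 for *Fgfr3* in myoblasts, −0.028 to 0.068 for *Fgfr1* in myotubes and −0.368 to 1.167 for *Fgf7* after injury in WT. For the differentiation difference they ran from −0.272 to 0.057 for *Fgfr1*, −0.614 to 0.216 for *Fgfr2*, −0.055 to 0.62 for *Fgfr3* and −0.088 to 0.07 for *Spry2*. Pathway counts, whose alternatives were chosen after seeing the data, were 16 in FiMuSCs, 6 in myoblasts, 5 in myotubes, 19 for the injury difference and 2 for the differentiation difference with DESeq2, 4 in myoblasts with all 24 libraries, 7 for the injury difference with the length offset and 2 in myotubes with no filter. Over all genes DESeq2 called 2578 positive and 2017 negative injury differences of 35447. With no filter 110 genes were higher and 86 lower of 29514 in myotubes.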
